A study of Mus musculus with 8 samples.

Results

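The genes described here are 47 genes of mitosis and chromosome segregation, chosen by name as genes that act in the G2 and M phases of the cell cycle, out of 53379 genes in each deposited table. They are the mitotic cyclins, the mitotic kinases, the spindle checkpoint, kinesins, condensin and the proteins of cytokinesis. The rule names genes by symbol and holds no measured value, but the list was chosen with earlier results of these data known. RNA was sequenced from epithelial cells of the mouse distal colon in 8 libraries, 4 groups of 2, all of strain C57BL/6. The groups were RORaΔIEC mice given DSS, RORaf/f mice given DSS, untreated RORaΔIEC mice and untreated RORaf/f mice. RORaf/f mice carry floxed Rora alleles, and the name RORaΔIEC stands for their deletion in intestinal epithelial cells. Rora encodes a nuclear receptor. The driver of the recombinase is not given in the sources used here. DSS (dextran sulfate sodium), a polymer that injures the colon lining, was in the drinking water at 2% (w/v) for 5 days, and 3 days of plain water followed. Nothing in the labels says that the 2 libraries of a group came from separate animals, so the p-values below reflect how far the libraries of a group differ, and that difference may be no more than technical.

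A cell enters mitosis when Cdk1 bound to B-type cyclins is switched on. The spindle checkpoint then holds the cell until every chromosome is attached to the spindle, after which securin and cyclin B are destroyed, separase cuts the cohesin rings and the cell divides in the middle. In the colon, dividing cells sit in the lower part of the crypts, and most of these genes are transcribed mainly in G2 and M through promoter elements called CHR and CCAAT boxes, which the MuvB complex with B-Myb and FoxM1, and the factor NF-Y, are known to bind. In RNA from a tissue preparation, more dividing cells and more RNA per dividing cell cannot be told apart.

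RefSeq promoter windows (build GRCm38.p6, 250 bases before to 50 bases after the annotated start, 300 bases in all) were at hand for 40 of the 47 members. Tpx2, Ccna2, Smc4, Cdc25c, Kif20a, Aurkb and Incenp had none. Shown here are Cdk1 and Ccnb2, the kinase and a cyclin that start mitosis, Bub1 and Top2a, which differed strongly between the DSS groups, and Pttg1, the single member not called in any comparison. Capitals mark the CHR letters TTTGAA or TTCGAA and the CCAAT box, read on either strand, so that TTCAAA and ATTGG are the same elements on the other strand.
Cdk1 promoter (chr10:69352863-69353162, minus strand): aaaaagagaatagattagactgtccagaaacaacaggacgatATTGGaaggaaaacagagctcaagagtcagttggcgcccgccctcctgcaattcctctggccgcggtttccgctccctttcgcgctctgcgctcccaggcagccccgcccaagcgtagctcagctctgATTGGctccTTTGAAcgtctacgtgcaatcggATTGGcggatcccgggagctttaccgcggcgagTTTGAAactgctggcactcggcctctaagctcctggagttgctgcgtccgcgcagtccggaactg
Ccnb2 promoter (chr9:70421505-70421804, minus strand): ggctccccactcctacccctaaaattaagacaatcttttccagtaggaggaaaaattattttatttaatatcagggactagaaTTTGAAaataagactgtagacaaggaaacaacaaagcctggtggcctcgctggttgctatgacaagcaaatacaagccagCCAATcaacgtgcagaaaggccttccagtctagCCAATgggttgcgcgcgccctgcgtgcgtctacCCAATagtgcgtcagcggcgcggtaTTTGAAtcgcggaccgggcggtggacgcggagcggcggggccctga
Bub1 promoter (chr2:127831810-127832109, minus strand): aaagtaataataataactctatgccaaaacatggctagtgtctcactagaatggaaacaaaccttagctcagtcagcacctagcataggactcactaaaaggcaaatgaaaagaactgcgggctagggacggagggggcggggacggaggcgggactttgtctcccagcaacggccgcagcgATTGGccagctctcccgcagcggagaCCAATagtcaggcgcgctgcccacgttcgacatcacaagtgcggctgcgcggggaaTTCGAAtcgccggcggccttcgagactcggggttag
Top2a promoter (chr11:99024140-99024439, minus strand): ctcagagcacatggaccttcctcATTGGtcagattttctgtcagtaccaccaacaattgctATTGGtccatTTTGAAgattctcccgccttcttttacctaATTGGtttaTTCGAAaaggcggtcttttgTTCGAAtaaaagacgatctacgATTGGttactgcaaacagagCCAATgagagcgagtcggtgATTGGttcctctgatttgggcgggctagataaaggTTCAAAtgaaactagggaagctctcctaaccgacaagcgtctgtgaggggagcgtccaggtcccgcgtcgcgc
Pttg1 promoter (chr11:43425932-43426231, minus strand): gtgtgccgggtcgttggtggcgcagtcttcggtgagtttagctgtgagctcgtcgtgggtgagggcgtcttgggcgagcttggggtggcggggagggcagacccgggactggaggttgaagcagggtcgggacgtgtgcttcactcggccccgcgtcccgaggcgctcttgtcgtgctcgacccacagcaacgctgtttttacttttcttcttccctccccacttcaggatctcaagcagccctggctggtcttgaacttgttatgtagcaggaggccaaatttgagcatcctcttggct

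The first 4 of these windows hold both elements, and the Pttg1 window holds neither. The RefSeq start used for Pttg1 lies 270 bases from the GENCODE start of the gene, and all 300 bases of its window lie inside the GENCODE gene, so the window shows nothing upstream of that start. A CHR was found in a window of 32 of the 40 members (80.0%), against 16.6% of 10667 other tested genes and 21.7% of all 27025 genes with a window. A CCAAT box was found for 30 members (75%), against 42.6% of the other tested genes. Both together were found for 28 members (70.0%), against 6.68% for the other tested genes. These are descriptions of letters in a window, and the genes were listed as cell cycle genes in the first place.

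The 40 members had 42 windows, and sites of Ect2 and Prc1 lay in overlapping windows and were counted in each. Over these windows, the first base of a CHR match lay at a median of -15 bases from the RefSeq start, and that of a CCAAT match at -69.5 bases. The E2F letters GGCGGGA or TTCGCGC were found for 12 members (30.0%), against 25.2% of the other tested genes. In a list of 45 DNA replication genes the proportions ran the other way, with E2F letters in 55.3% and a CHR in 21.1% of the 38 genes with a window. The letters TAGGTCA, a site that ROR receptors are known to bind, were found in the windows of Anln and Mad2l1, 5.0% of the 40, against 2.29% of the other tested genes. All searches covered both strands, and no match says nothing of sites outside the window.

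**Figure D1:**
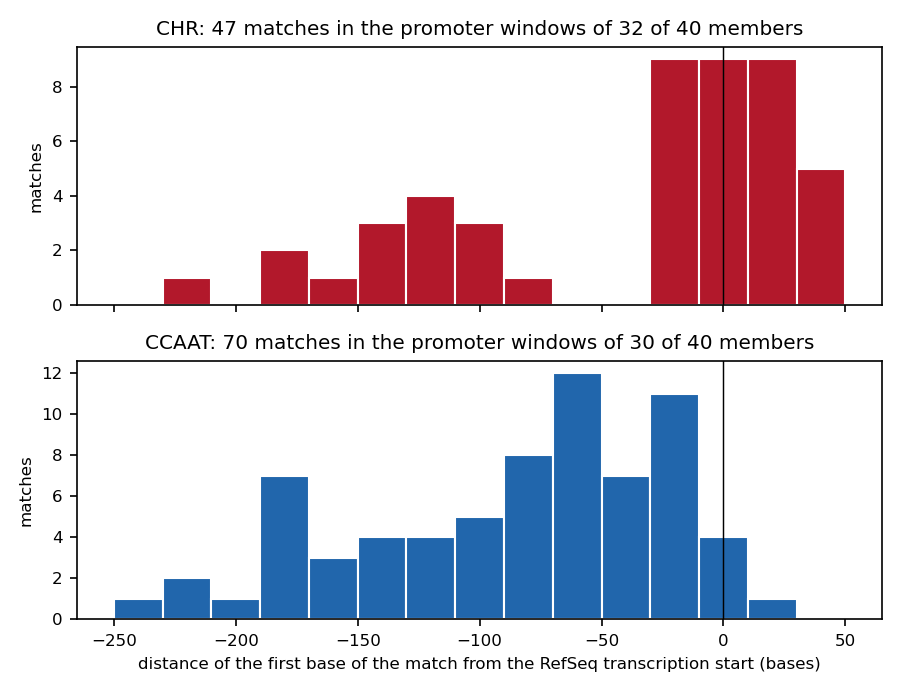
Number of CHR matches (upper panel) and CCAAT matches (lower panel) in 20-base bins of distance from the RefSeq transcription start (bases, x axis) over the 42 promoter windows of the 40 members. Sites of Ect2 and Prc1 lay in overlapping windows and were counted in each. CHR matches have a median of -15 bases and quartiles of -102 and 14.5 bases. CCAAT matches have a median of -69.5 bases and quartiles of -131.25 and -42.5 bases.

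The libraries held between 15971642 and 20418466 expected counts, and all 47 members passed the filter on low counts with at least 46 counts in every library. Rora, the deleted gene, had 8 and 5 counts in RORaΔIEC DSS libraries, against 16 and 14 in RORaf/f DSS libraries. Without DSS its libraries held 4 and 3 counts in RORaΔIEC, against 12 and 6 in RORaf/f. Its log2 fold change was -1.24 ± 0.45 (SE) with an edgeR adjusted p of 0.0425 in DSS libraries, and -1.10 ± 0.58 with an adjusted p of 0.238 in untreated ones. The call in DSS libraries was lost under 10 of 14 other settings, and a gene-level count does not show whether the floxed exon is gone. Epithelial markers such as Epcam and Krt8 summed to 18700 to 19500 CPM in RORaΔIEC DSS and 19400 to 19500 CPM in RORaf/f DSS, and to 24800 to 24900 and 21600 to 21800 CPM in the untreated RORaΔIEC and RORaf/f libraries. The 2 RORaΔIEC DSS libraries differed most, where chi-square between replicates over its degrees of freedom was 5.23, against 1.86 in RORaf/f DSS, 1.29 in untreated RORaΔIEC and 2.23 in untreated RORaf/f, while 1 spread shared by all groups entered the test. For the members the median absolute log2 ratio between replicates was 0.091 in RORaΔIEC DSS, against 0.08, 0.08 and 0.073 in the other groups in that order. CPM here and below means counts-per-million after TMM scaling.

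Mitotic transcripts were most abundant in the RORaΔIEC DSS libraries. The deposited TPM values (transcripts-per-million, which take gene length into account) of the 47 genes summed to 1495 and 1486 in RORaΔIEC DSS, against 656.5 and 670.7 in RORaf/f DSS. In untreated libraries the sums were 786 and 778 in RORaΔIEC, against 580.4 and 592 in RORaf/f. Groups were ordered by the mean of log2 (CPM + 0.5) over their libraries. This mean was highest in RORaΔIEC DSS for 46 members, and for 42 of them untreated RORaΔIEC came next. In 33 members the lowest group was untreated RORaf/f, and in 13 (Bub1, Bub1b, Mad2l1, Ttk, Espl1, Aurkb, Cdca8, Nuf2, Nusap1, Ect2, Smc2, Ncapd2 and Ncaph) it was RORaf/f DSS. Cdc25c, Cenpa, Cenpe and Cenpf had a higher mean in RORaf/f DSS than in untreated RORaΔIEC. Pttg1 ran in the reverse order to most members, highest in untreated RORaf/f and lowest in RORaΔIEC DSS.

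**Figure D2:**
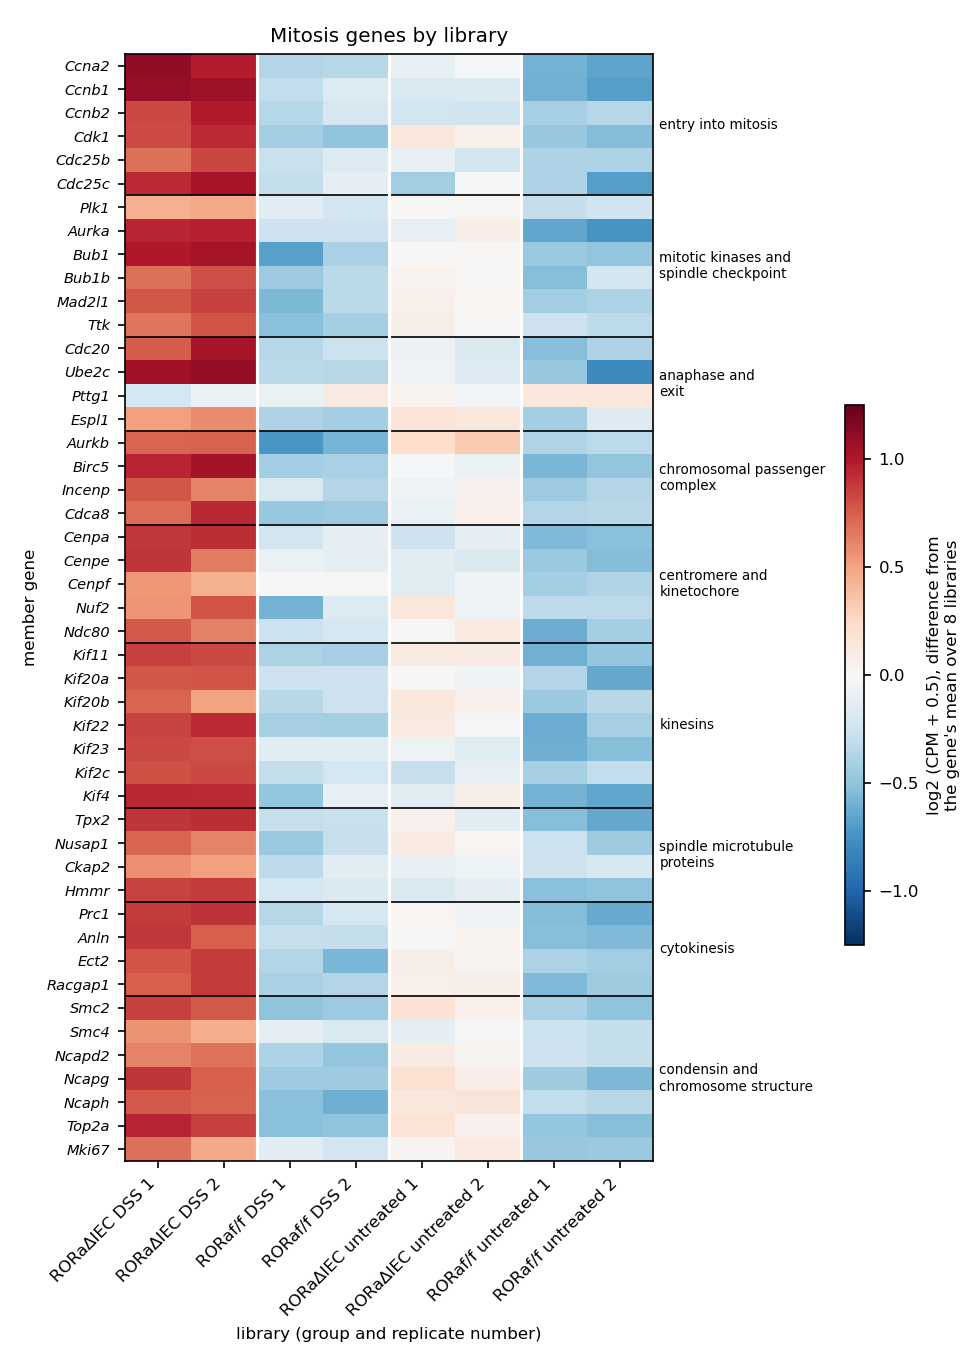
Colour gives log2 (CPM + 0.5) of each member gene (rows, grouped by role) in each library (columns, group and replicate number) as a difference from the mean of that gene over the 8 libraries. The median difference is 0.79 and 0.82 in the RORaΔIEC DSS libraries, -0.35 and -0.28 in RORaf/f DSS, 0 and 0.01 in untreated RORaΔIEC, and -0.46 and -0.44 in untreated RORaf/f.

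In uninjured colon, 40 of the 47 members were higher in RORaΔIEC than in RORaf/f and none was lower, whereas 9.19% of all 14991 tested genes were higher and 6.22% lower (edgeR quasi-likelihood test, Benjamini-Hochberg adjusted over all tested genes, threshold 0.05). The members' median log2 fold change was 0.47, against 0.007 for all tested genes. Aurka, the kinase of the spindle poles, had the highest value at 0.72 ± 0.10 (SE, adjusted p = 0.000183), followed by Ncapg at 0.66 and Kif11 at 0.66. Role medians lay between 0.36 and 0.57, and the highest was that of cytokinesis, where Prc1, Anln, Ect2 and Racgap1 were all higher. The 7 members not called were Ccnb2 (0.15), Cdc25b (0.23), Cdc25c (0.36), Nuf2 (0.39), Kif2c (0.18), Ckap2 (0.16) and Pttg1 (-0.13), all on the log2 scale.

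The calls in uninjured colon rested on small differences, and 19 of the 40 members were called under every alternative run. Leaving out 1 untreated library lowered the count of members called. It lowered the calls over all genes too, so it cannot show that the members in particular are unstable. The members' median log2 fold change was 0.46 and 0.49 without RORaΔIEC replicate 1 and 2. It was 0.48 and 0.46 without RORaf/f replicate 1 and 2, beside 0.47 with all libraries. The direction of the 40 values did not change under any of these.

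After DSS, 46 of the 47 members were higher in RORaΔIEC than in RORaf/f and none was lower, beside 21.3% of all tested genes higher and 17.7% lower (39.1% in either direction). The median log2 fold change of the members was 1.21, with a range of -0.17 to 1.62, against -0.006 for all tested genes. Bub1, Birc5 and Ube2c stood at the top with 1.62, 1.44 and 1.44, and Plk1 and Cenpf were the lowest of those called with 0.65 and 0.50. By role, the chromosomal passenger complex had the highest median (1.37), followed by the genes of entry into mitosis (1.31) and of condensin and chromosome structure (1.31). The centromere and kinetochore genes had the lowest (0.99). Only Pttg1 was not called, and 45 of the 46 calls held under every alternative run, the exception being Cenpf.

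**Figure D3:**
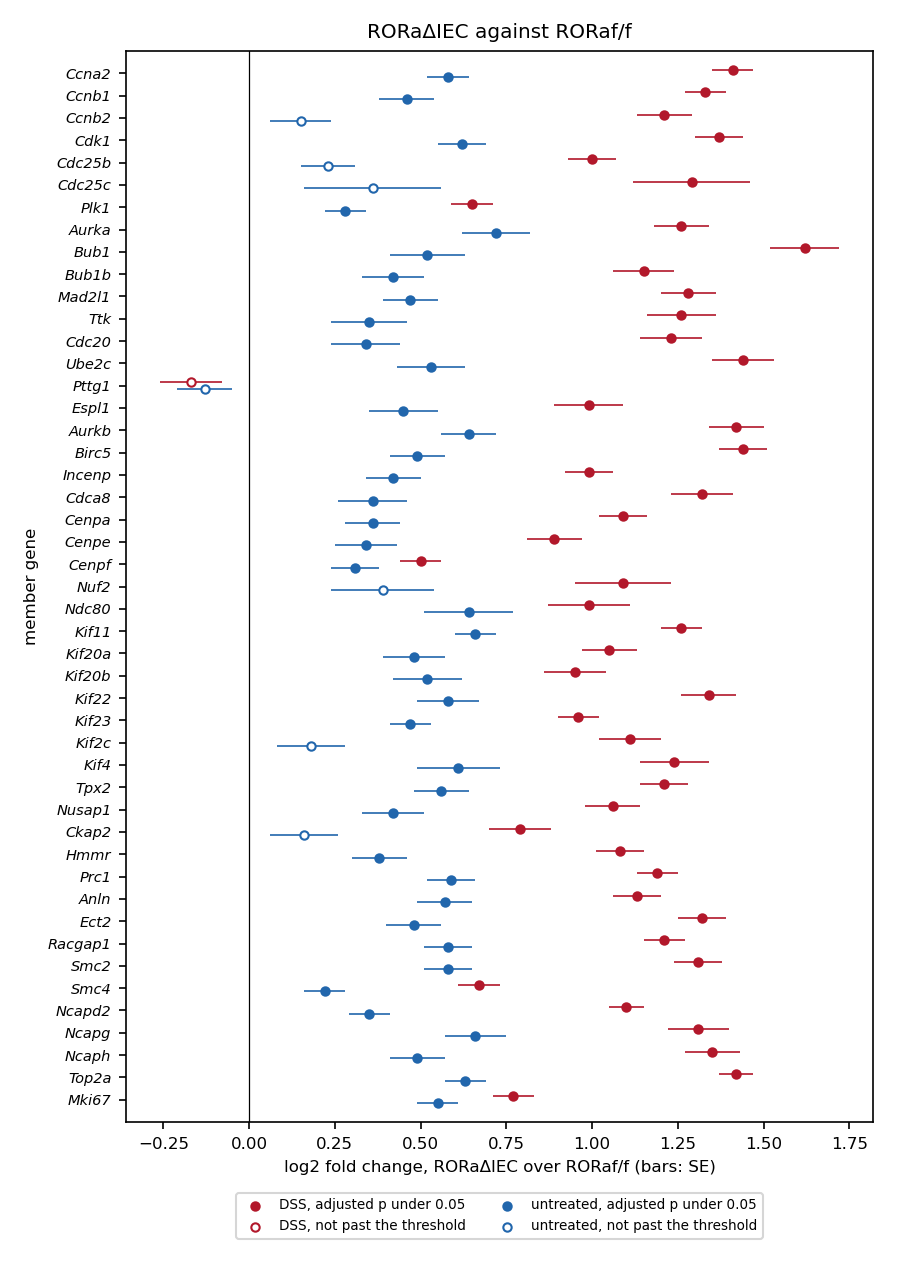
Log2 fold change of RORaΔIEC over RORaf/f (x axis) for each member gene (y axis) in DSS libraries (red) and untreated libraries (blue), with bars of 1 SE. Filled points have an adjusted p under 0.05 and open points do not. The 46 red filled points lie between 0.50 and 1.62, and the 40 blue filled points between 0.22 and 0.72.

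Among the genes that start mitosis, all 6 were higher in RORaΔIEC after DSS, and Ccna2, Ccnb1 and Cdk1 were also higher in RORaΔIEC without injury. Cdk1, the kinase that drives entry and the member of this role with the highest TPM, had 51.1 and 55.5 CPM in RORaΔIEC DSS, against 21.1 and 20.2 CPM in RORaf/f DSS. In untreated libraries it had 31.7 and 30.1 CPM in RORaΔIEC, against 20.6 and 19.6 CPM in RORaf/f. Neither pair overlapped, and the fold was 2.58 after DSS (log2 1.37 ± 0.07, adjusted p = 2.13e-09) and 1.53 without it (0.62 ± 0.07, adjusted p = 5.34e-05).

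Ccnb1, the cyclin B that is destroyed at anaphase, had 60.1 and 58.7 CPM in RORaΔIEC DSS, against 22.4 and 24.7 CPM in RORaf/f DSS. Ccnb2, the other B-type cyclin, had 45.7 and 51.4 CPM in RORaΔIEC DSS, against 19.9 and 22.1 CPM in RORaf/f DSS. Both were higher in RORaΔIEC, with log2 fold changes of 1.33 ± 0.06 and 1.21 ± 0.08. They parted without injury, where Ccnb1 was higher in RORaΔIEC (24.4 and 24.5 CPM, against 18.3 and 17.1 CPM in RORaf/f) and Ccnb2 was not called (21.7 and 21.4 CPM, against 19.1 and 19.9 CPM in RORaf/f, log2 0.15 ± 0.09, adjusted p = 0.293). Cdc25c, a phosphatase that takes inhibitory phosphates off Cdk1, was among the members of low TPM. It had 8.98 and 9.67 CPM in RORaΔIEC DSS, against 3.55 and 4.06 CPM in RORaf/f DSS.

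The mitotic kinases and checkpoint genes were all higher in RORaΔIEC, in DSS libraries as in untreated ones. Bub1, a checkpoint kinase at the kinetochore, showed the widest gap of all members after DSS, with 20.2 and 20.6 CPM in RORaΔIEC against 5.95 and 7.30 CPM in RORaf/f. This is a fold of 3.07 (log2 1.62 ± 0.10, adjusted p = 2.66e-08). In untreated libraries Bub1 had 9.85 and 9.98 CPM in RORaΔIEC, against 7.01 and 6.84 CPM in RORaf/f, and that call (0.52 ± 0.11, adjusted p = 0.00725) was lost without RORaΔIEC replicate 1, RORaΔIEC replicate 2 or RORaf/f replicate 2.

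Plk1, a kinase used from entry to cytokinesis and the checkpoint and kinase member with the highest TPM, differed far less. It had 55.1 and 56.0 CPM in RORaΔIEC DSS, against 36.5 and 34.1 CPM in RORaf/f DSS (0.65 ± 0.06, adjusted p = 5.33e-07). Without DSS its libraries held 40 and 40.6 CPM in RORaΔIEC, against 32.7 and 33.8 CPM in RORaf/f (0.28 ± 0.06, adjusted p = 0.00525), a call that was lost without RORaΔIEC replicate 2 or RORaf/f replicate 1. The groups did not overlap in either treatment. Aurka had 29.3 and 29.8 CPM in RORaΔIEC DSS, against 12.4 and 12.4 CPM in RORaf/f DSS, and 13.9 and 15.9 CPM in untreated RORaΔIEC, against 9.36 and 8.80 CPM in untreated RORaf/f. Its 4 groups were all apart, with untreated RORaf/f the lowest. Ttk, the kinase that recruits the checkpoint to kinetochores, had 15.2 and 16.5 CPM in RORaΔIEC DSS, against 6.37 and 6.89 CPM in RORaf/f DSS. Its call in untreated libraries was the weakest of the 40 (adjusted p = 0.0457) and was lost without any 1 of the untreated or RORaf/f DSS libraries.

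The genes of anaphase and mitotic exit held both a top member and the exception. Ube2c, the ubiquitin-conjugating enzyme of the anaphase-promoting complex, had 46.5 and 48.3 CPM in RORaΔIEC DSS, against 17.5 and 17.4 CPM in RORaf/f DSS (1.44 ± 0.09, adjusted p = 1.34e-08). In untreated libraries it had 21.6 and 19.8 CPM in RORaΔIEC, against 15.9 and 12.6 CPM in RORaf/f. Its exons share 22.8% of their bases with Tnnc2 on the opposite strand, and the strand setting of the counting is not given in the sources used here. Cdc20, which activates the same complex, and Espl1, the separase, were higher as well, with 1.23 and 0.99 after DSS and 0.34 and 0.45 without it, on the log2 scale. Both of their calls in untreated libraries were lost without RORaΔIEC replicate 1, RORaΔIEC replicate 2 or RORaf/f replicate 1, and that of Cdc20 also without RORaf/f replicate 2.

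Pttg1, the securin that holds separase inactive, did not follow the others. It had 18 and 19.8 CPM in RORaΔIEC DSS, against 19.8 and 22.8 CPM in RORaf/f DSS, and 21.7 and 20.5 CPM in untreated RORaΔIEC, against 23.0 and 23.1 CPM in untreated RORaf/f. All 8 libraries lay within a narrow span, and no comparison of Pttg1 was called (log2 -0.17 ± 0.09 after DSS, adjusted p = 0.129, and -0.13 ± 0.08 without it, adjusted p = 0.353). At a mean of 44.4 TPM it was the third member by level, after Top2a at 57.9 and Cdk1 at 50.6 TPM, so its counts of 313 to 460 per library were not low.

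All 4 members of the chromosomal passenger complex, which corrects faulty chromosome attachments, were higher in RORaΔIEC in both treatments. Birc5, known as survivin, had 46.4 and 49.3 CPM in RORaΔIEC DSS, against 17.5 and 17.8 CPM in RORaf/f DSS (1.44 ± 0.07, adjusted p = 1.43e-09). Without DSS its libraries held 23.4 and 22.3 CPM in RORaΔIEC, against 15.8 and 16.7 CPM in RORaf/f (0.49 ± 0.08, adjusted p = 0.000571). The RORaΔIEC DSS libraries of Birc5 were above every other library. Aurkb, the kinase of the complex, had 30.7 and 30.9 CPM in RORaΔIEC DSS, against 10.9 and 12.1 CPM in RORaf/f DSS, and 21.5 and 23.2 CPM in untreated RORaΔIEC, against 14.1 and 14.6 CPM in untreated RORaf/f. Its RORaf/f DSS libraries were the lowest of the 8. Cdca8, the borealin subunit, had 32.0 and 38.0 CPM in RORaΔIEC DSS, against 13.9 and 14.1 CPM in RORaf/f DSS. Its smaller difference in untreated libraries (0.36 ± 0.10, adjusted p = 0.0235) was lost without any 1 of the 4 untreated libraries.

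At the centromere, Cenpa, the histone variant that marks it, had 54.6 and 55.9 CPM in RORaΔIEC DSS, against 24.7 and 27.1 CPM in RORaf/f DSS (1.09 ± 0.07, adjusted p = 1.33e-08). In untreated libraries it had 24.5 and 26.9 CPM in RORaΔIEC, against 19.8 and 20.3 CPM in RORaf/f (0.36 ± 0.08, adjusted p = 0.00518), a call lost without RORaΔIEC replicate 2 or RORaf/f replicate 1. For Cenpa, the RORaf/f DSS libraries overlapped those of untreated RORaΔIEC. Nuf2 and Ndc80, partners in the complex that grips microtubules, were higher in RORaΔIEC after DSS by 1.09 ± 0.14 and 0.99 ± 0.12 on the log2 scale. Cenpf, a large protein of the outer kinetochore, differed least of the called members. It had 47.9 and 44.7 CPM in RORaΔIEC DSS, against 32.6 and 32.9 CPM in RORaf/f DSS (0.50 ± 0.06, adjusted p = 1.86e-05), and the call was lost with RSEM effective lengths as offsets. The mean transcript length that RSEM assigned to Cenpf ranged between 3972.21 and 10960.62 bases over the libraries, so its TPM values are not a steady measure.

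Kinesins, the motors that build the spindle and carry chromosomes, were all 7 higher in RORaΔIEC after DSS, and 6 of them in untreated libraries. Kif23, a motor of the central spindle and the kinesin with the highest TPM, had 64.6 and 63.7 CPM in RORaΔIEC DSS, against 32.8 and 33.0 CPM in RORaf/f DSS (0.96 ± 0.06, adjusted p = 1.02e-08). Without DSS its libraries held 34.8 and 32.7 CPM in RORaΔIEC, against 23.6 and 24.9 CPM in RORaf/f (0.47 ± 0.06, adjusted p = 0.000164). As for Cenpa, the RORaf/f DSS libraries overlapped those of untreated RORaΔIEC. Kif11, the motor that pushes the spindle poles apart, had 61.2 and 59.9 CPM in RORaΔIEC DSS, against 25.5 and 25.2 CPM in RORaf/f DSS, and 36.5 and 36.2 CPM in untreated RORaΔIEC, against 22.1 and 24.0 CPM in untreated RORaf/f. Both RORaΔIEC groups of Kif11 were above both RORaf/f groups. The counts of Kif20a and Kif4 are less certain, since 29.3% and 15.1% of their exon bases overlap Cdc23 and Pdzd11 on the opposite strand. In all, 15 members share exon bases with another gene. Among them are Ncapg (13.4%), Cdc25c (12.7%), Ccna2 (12.5%) and Prc1 (11.1%), also with genes on the opposite strand.

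The spindle microtubule proteins gave the same picture after DSS, with all 4 higher in RORaΔIEC. Tpx2, which activates Aurora A and nucleates spindle microtubules, had 51.7 and 52.7 CPM in RORaΔIEC DSS, against 22.6 and 22.7 CPM in RORaf/f DSS (1.21 ± 0.07, adjusted p = 1.03e-08). In untreated libraries it had 28.8 and 25.2 CPM in RORaΔIEC, against 18.9 and 17.6 CPM in RORaf/f (0.56 ± 0.08, adjusted p = 0.000247). Ckap2, a microtubule-binding protein, had 20.1 and 19.3 CPM in RORaΔIEC DSS, against 10.6 and 12.2 CPM in RORaf/f DSS. Its levels in untreated libraries, 12.5 and 12.8 CPM in RORaΔIEC against 11.1 and 11.6 CPM in RORaf/f, did not pass the test (0.16 ± 0.10, adjusted p = 0.303).

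The 4 cytokinesis genes were higher in RORaΔIEC in both treatments. Racgap1, which forms the central spindle complex with Kif23, had 55.8 and 60.8 CPM in RORaΔIEC DSS, against 24.9 and 25.6 CPM in RORaf/f DSS (1.21 ± 0.06, adjusted p = 4.55e-09). Without DSS its libraries held 34.6 and 34.8 CPM in RORaΔIEC, against 22.4 and 24.1 CPM in RORaf/f (0.58 ± 0.07, adjusted p = 6.22e-05). Prc1, Anln and Ect2 lay close to it, with 1.19, 1.13 and 1.32 after DSS and 0.59, 0.57 and 0.48 without it, on the log2 scale. None of the 4 calls in untreated libraries was lost under any alternative run.

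Genes of condensin and chromosome structure were also higher in RORaΔIEC throughout, all 7 in each treatment. Top2a, the topoisomerase that untangles sister chromatids and the member with the highest TPM, had 215 and 200 CPM in RORaΔIEC DSS, against 77.0 and 78.2 CPM in RORaf/f DSS. In untreated libraries it had 125 and 115 CPM in RORaΔIEC, against 79.0 and 76.3 CPM in RORaf/f. The folds were 2.68 (log2 1.42 ± 0.05, adjusted p = 1.92e-10) and 1.55 (0.63 ± 0.06, adjusted p = 4.2e-06), and the change after DSS in RORaf/f was 0.00 ± 0.06 (adjusted p = 0.994). Ncapg, a condensin subunit, had 32.0 and 28.8 CPM in RORaΔIEC DSS, against 12.2 and 12.3 CPM in RORaf/f DSS, and 19.4 and 18 CPM in untreated RORaΔIEC, against 12.3 and 11.3 CPM in untreated RORaf/f. Ncaph, the subunit that closes the condensin ring, had 30.4 and 29.6 CPM in RORaΔIEC DSS, against 12.1 and 11.4 CPM in RORaf/f DSS. Mki67, the proliferation antigen that coats mitotic chromosomes, had 340 and 293 CPM in RORaΔIEC DSS, against 192 and 178 CPM in RORaf/f DSS, and 216 and 228 CPM in untreated RORaΔIEC, against 151 and 152 CPM in untreated RORaf/f. Its fold change after DSS (0.77 ± 0.06) was the lowest of this role but that of Smc4 (0.67 ± 0.06).

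**Figure D4:**
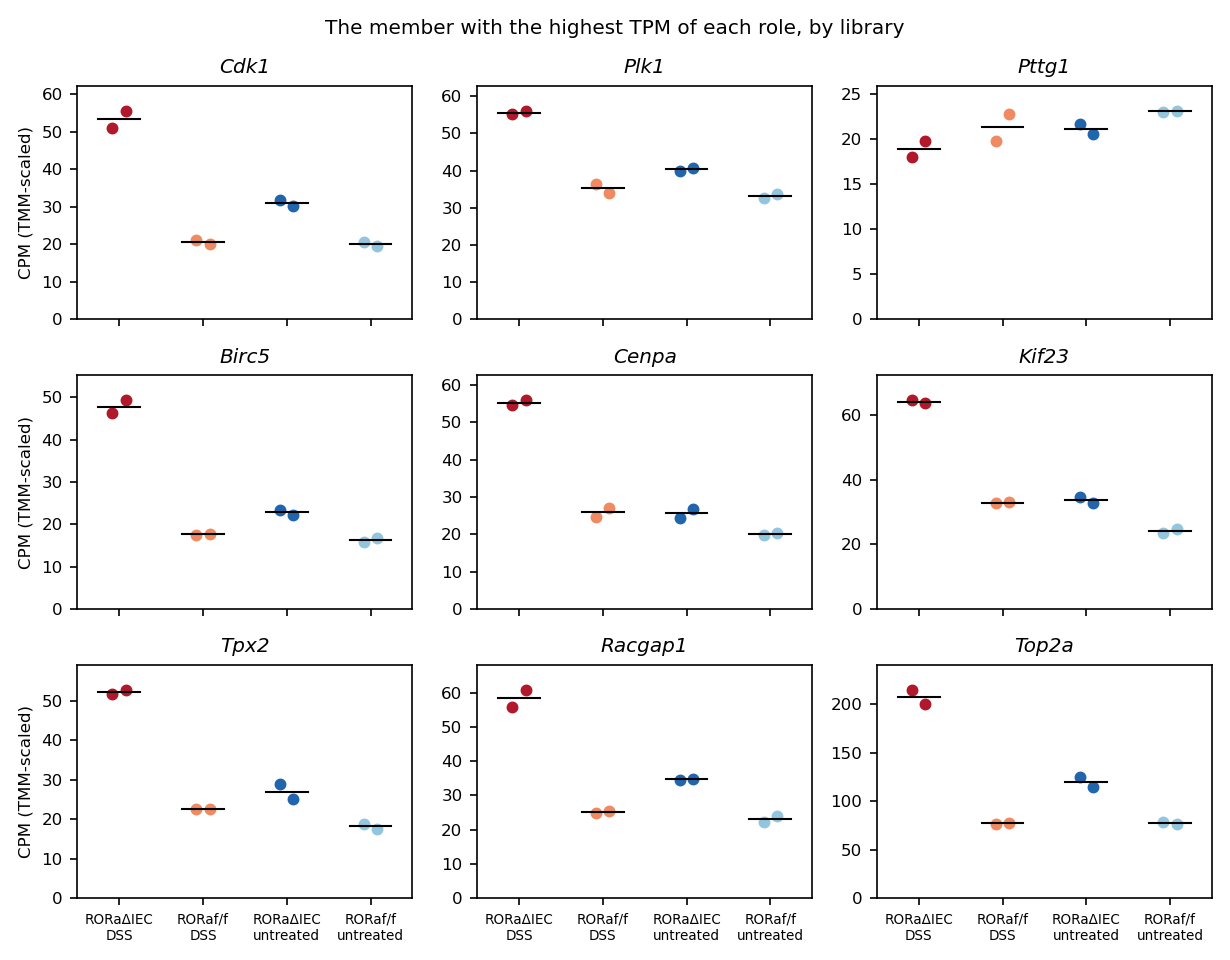
CPM after TMM scaling (y axis, from 0) of the member with the highest mean TPM in each of the 9 roles, in the 4 groups (x axis). Points are libraries and lines are means of 2. In 8 panels the RORaΔIEC DSS libraries are above all others, as in Top2a with 215 and 200 CPM, and in the Pttg1 panel they are not.

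Set against untreated libraries of the same genotype, the members rose after DSS in RORaΔIEC, where 46 of 47 were higher and none was lower (21.7% and 19.8% of all tested genes), with a median log2 fold change of 0.79. The genes of entry into mitosis changed most, with a median of 1.14. Cdc25c rose by 1.29 ± 0.17 (8.98 and 9.67 CPM after DSS, against 3.18 and 4.41 CPM in untreated RORaΔIEC), Ccnb1 by 1.28 ± 0.06 and Ube2c by 1.20 ± 0.08. At the other end, Plk1 and Aurkb rose by 0.46 ± 0.06 and 0.46 ± 0.07, and Espl1 by 0.42 ± 0.09 (23.6 and 25.1 CPM after DSS, against 18.4 and 18.1 CPM in untreated RORaΔIEC). Pttg1 was not called (-0.16 ± 0.09, adjusted p = 0.164). Of the 46 calls, 45 held under every alternative run, and that of Cenpf was lost with effective lengths as offsets, where its value was 0.03.

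In RORaf/f the members changed little and in both directions after DSS. There 15 members were higher, 3 were lower and 29 did not pass the test, beside 18.9% of all tested genes higher and 18.3% lower. The median log2 fold change was 0.12. Higher were Ccna2, Ccnb1, Aurka, Ube2c, Cenpa, Cenpe, Cenpf, Kif20a, Kif23, Kif4, Tpx2, Hmmr, Prc1, Anln and Mki67. Aurka (0.44 ± 0.10, adjusted p = 0.00315) and Kif23 (0.44 ± 0.06, adjusted p = 0.000104) had the highest values, followed by Cenpf at 0.41, whose value was -0.19 with effective lengths as offsets. The lower ones were Aurkb (-0.32 ± 0.09, adjusted p = 0.0144), Ncaph (-0.24 ± 0.09, adjusted p = 0.0424) and Ncapd2 (-0.17 ± 0.06, adjusted p = 0.0358).

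These counts depended on single libraries. The number higher was 9 without untreated RORaf/f replicate 2 and 10 without RORaf/f DSS replicate 2. The number lower was 0 without untreated RORaf/f replicate 2, and 1 without any 1 of the other untreated libraries or either RORaf/f DSS library. Among the named members, Ube2c lost its call without either RORaf/f DSS library, either untreated RORaΔIEC library or untreated RORaf/f replicate 2. Tpx2 lost it without untreated RORaf/f replicate 2, Mki67 without RORaf/f DSS replicate 1, and Aurkb without either of these 2 libraries. Called in the same direction under every setting run were 6 of the 18, Ccna2, Ccnb1, Aurka, Cenpa, Kif23 and Hmmr.

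The difference between the 2 DSS changes was tested as an interaction, and the DSS change was higher in RORaΔIEC than in RORaf/f for 43 of 47 members and lower for none. Of all tested genes, 10.8% were called in that direction and 10.6% in the other. The median of the members was 0.70 on the log2 scale. Bub1 (1.10 ± 0.16, adjusted p = 0.000231), Ccnb2 (1.06 ± 0.12, adjusted p = 2.15e-05) and Cdca8 (0.96 ± 0.14, adjusted p = 0.00023) had the largest differences. Spindle microtubule proteins were the most alike among themselves, with values between 0.63 and 0.69. The 4 members not called were Ndc80 (0.35, adjusted p = 0.189), Mki67 (0.23, adjusted p = 0.086), Cenpf (0.20, adjusted p = 0.152) and Pttg1 (-0.05, adjusted p = 0.828). Leaving out 1 library gave counts between 38 and 43, and 34 members were called under every setting run. The 9 whose call was lost under at least 1 setting were Cdc25c, Aurka, Espl1, Cenpe, Nuf2, Kif20b, Kif4, Anln and Smc4.

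**Figure D5:**
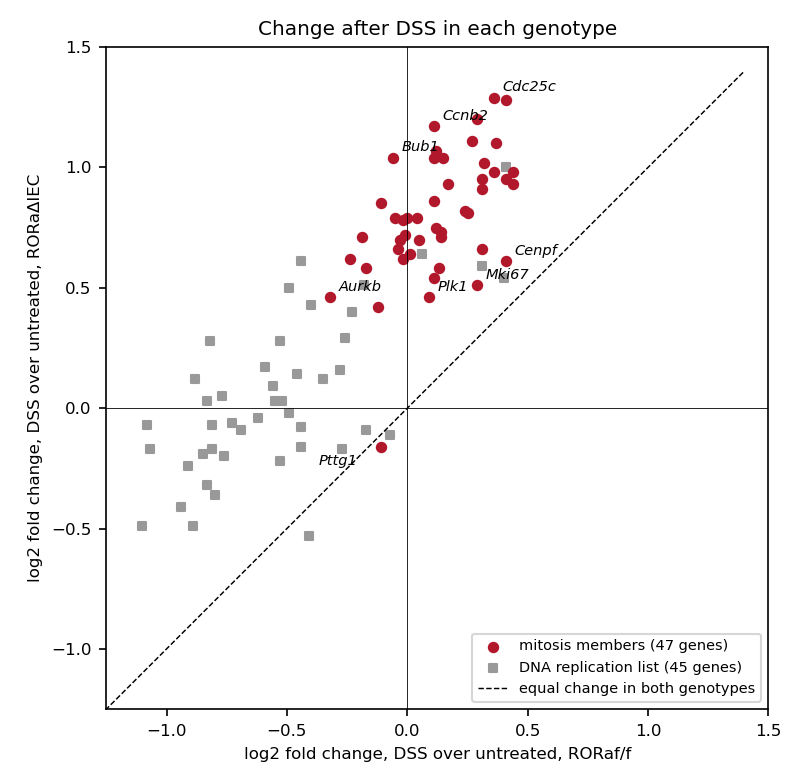
Log2 fold change of DSS over untreated in RORaΔIEC (y axis) and in RORaf/f (x axis) for the 47 mitosis members (red circles) and the 45 genes of the DNA replication list (grey squares). The dashed line marks equal change. All members but Pttg1 lie above the line, with medians of 0.79 in RORaΔIEC and 0.12 in RORaf/f, and the replication genes lie further left, with medians of -0.02 and -0.53.

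A second list of 85 mitosis genes that are no members, among them kinetochore, centromere and cohesin genes, was also mostly higher in RORaΔIEC than in RORaf/f after DSS. There 77 were higher and 1, the cohesin gene Stag2, was lower (-0.22), with a median of 0.95. Of all tested genes, 21.3% were higher and 17.7% lower there, and 9.19% and 6.22% in untreated libraries. Nek2, a centrosome kinase, had 52.1 and 52.1 CPM in RORaΔIEC DSS, against 21.9 and 21.4 CPM in RORaf/f DSS (1.27 ± 0.06, adjusted p = 1.58e-09). Lmnb1, Tacc3 and Cdca3 were higher by 0.99, 1.24 and 1.24 on the log2 scale. In untreated libraries 45 were higher and none was lower, with a median of 0.38, but 19, 24 and 26 were higher without RORaΔIEC replicate 1, RORaΔIEC replicate 2 and RORaf/f replicate 1.

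After DSS against untreated, 58 of the 85 were higher and 4 lower in RORaΔIEC (median 0.44). In RORaf/f 12 were higher and 11 lower (median -0.02). The shares of all tested genes were 21.7% and 19.8% in RORaΔIEC, 18.9% and 18.3% in RORaf/f, and 10.8% and 10.6% in the interaction. The interaction was higher for 40 and lower for 2, Hjurp and Stag2, and neither of these was called without any 1 of the untreated or RORaf/f DSS libraries. Wee1, the kinase that holds Cdk1 inactive, had the largest fall of the list after DSS in both genotypes. It fell by 0.96 ± 0.09 after DSS in RORaΔIEC (15.8 and 14.6 CPM, against 28.0 and 31.2 CPM in untreated RORaΔIEC) and by 0.82 ± 0.09 in RORaf/f (14.7 and 16.1 CPM, against 26.2 and 28.4 CPM in untreated RORaf/f). Pkmyt1, the other kinase that inhibits Cdk1, fell by 0.46 in RORaΔIEC and by 0.51 in RORaf/f. The number higher in RORaf/f was 2 without RORaf/f DSS replicate 1, 4 without untreated RORaf/f replicate 2 and 6 without untreated RORaf/f replicate 1.

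Genes of DNA replication, the step before mitosis, were set beside the members as a list of 45. Between genotypes they moved with the mitosis genes. Of all tested genes, 21.3% were higher and 17.7% lower in RORaΔIEC than in RORaf/f after DSS, and 9.19% and 6.22% without it. Of the 45, 44 were higher after DSS (median 0.99) and 34 without DSS (median 0.40), and none was lower. The count without DSS was 23, 21 and 22 without RORaΔIEC replicate 1, RORaΔIEC replicate 2 and RORaf/f replicate 2. The DSS change differed from that of the members. In RORaf/f 37 replication genes fell after DSS and 2 rose (median -0.53), and in RORaΔIEC 8 fell and 9 rose (median -0.02). Of all tested genes, 18.3% fell and 18.9% rose in RORaf/f, and 19.8% fell and 21.7% rose in RORaΔIEC. Mcm3, a subunit of the replicative helicase, had 44.8 and 49.0 CPM in RORaΔIEC DSS, against 16.6 and 15.0 CPM in RORaf/f DSS, and 50.2 and 48.5 CPM in untreated RORaΔIEC, against 33.0 and 33.6 CPM in untreated RORaf/f. Rrm1, a subunit of ribonucleotide reductase, had 96 and 97.1 CPM in RORaΔIEC DSS, against 33.0 and 35.0 CPM in RORaf/f DSS. The interaction was higher for 35 replication genes and lower for none (median 0.59), against 10.8% and 10.6% of all tested genes. The difference between the members and the replication list in their DSS change was not tested.

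Of 23 transcription factors and partners that act on cell cycle promoters, 12 were higher in RORaΔIEC after DSS and 2, Tfdp2 and Rbl2, were lower (1 lower without RORaf/f DSS replicate 2). Of all tested genes, 21.3% were higher and 17.7% lower there. Foxm1, which switches on late cell cycle genes, had 33.8 and 33.2 CPM in RORaΔIEC DSS, against 14.1 and 12.4 CPM in RORaf/f DSS (1.34 ± 0.09, adjusted p = 3.3e-08). Without DSS its libraries held 24.6 and 22 CPM in RORaΔIEC, against 15.1 and 16.8 CPM in RORaf/f (0.55 ± 0.09, adjusted p = 0.000723). Mybl2, which encodes B-Myb, had 17.1 and 15.9 CPM in RORaΔIEC DSS, against 7.51 and 7.83 CPM in RORaf/f DSS (1.10 ± 0.10, adjusted p = 8.48e-07). Both followed the order of most members, RORaΔIEC DSS above untreated RORaΔIEC above both RORaf/f groups. Within RORaf/f, Foxm1 was lower after DSS (-0.26 ± 0.10, edgeR adjusted p = 0.0459), where the median of the members was 0.12. Mybl2 was not called there (-0.09 ± 0.11). The interaction was 0.79 ± 0.13 for Foxm1 (adjusted p = 0.000575) and 0.46 ± 0.14 for Mybl2 (adjusted p = 0.0344), and the second was lost under 8 other settings.

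The cell cycle factor list held 11 higher and 2 lower genes in untreated RORaΔIEC against RORaf/f, 4 higher and 4 lower after DSS in RORaΔIEC, 2 higher and 9 lower after DSS in RORaf/f, and 8 higher and 1 lower in the interaction. Of all tested genes, 9.19% were higher and 6.22% lower in the first of these comparisons. The shares were 21.7% and 19.8% after DSS in RORaΔIEC, 18.9% and 18.3% in RORaf/f, and 10.8% and 10.6% in the interaction. E2f2 was higher and E2f1 lower after DSS in both genotypes. E2f2 rose by 1.45 ± 0.08 in RORaΔIEC and by 0.97 ± 0.10 in RORaf/f, and E2f1 fell by 0.77 ± 0.13 and by 1.08 ± 0.15. The factor counts were small and moved with single libraries. For untreated RORaΔIEC against RORaf/f they were 7 higher and 0 lower without any 1 untreated library. In the interaction they were 2 higher without RORaf/f DSS replicate 1 and 4 higher without RORaf/f DSS replicate 2 or any 1 untreated library. After DSS in RORaf/f 5 were lower without RORaf/f DSS replicate 2 or untreated RORaf/f replicate 2, and after DSS in RORaΔIEC 2 were lower without untreated RORaΔIEC replicate 1.

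Among 15 tested cyclins, kinases and inhibitors of the G1 phase, 11 were higher and 3 lower in RORaΔIEC after DSS, with 5 higher and 1 lower in untreated libraries. The shares of all tested genes were 21.3% and 17.7% after DSS, and 9.19% and 6.22% in untreated libraries. Ccnd1, cyclin D1, had 103 and 101 CPM in RORaΔIEC DSS, against 65.2 and 64.3 CPM in RORaf/f DSS (0.65 ± 0.05, adjusted p = 1.09e-07). The lower ones were Cdk6 (-0.64 ± 0.07), Cdkn1b (-0.17) and Cdkn2b (-0.37). Cdkn1a, the inhibitor p21, had 189 and 190 CPM in RORaΔIEC DSS, against 177 and 170 CPM in RORaf/f DSS, and 268 and 268 CPM in untreated RORaΔIEC, against 248 and 246 CPM in untreated RORaf/f. It fell by 0.50 ± 0.04 after DSS in RORaΔIEC and by 0.51 ± 0.04 in RORaf/f, and its interaction of 0.01 ± 0.06 was not called (adjusted p = 0.903). After DSS the list had 3 higher and 4 lower genes in RORaΔIEC and 2 higher and 9 lower in RORaf/f, and its interaction 5 higher and 1 lower. The shares of all tested genes were 21.7% and 19.8% in RORaΔIEC, 18.9% and 18.3% in RORaf/f, and 10.8% and 10.6% in the interaction. Without untreated RORaf/f replicate 2 the list had 5 lower genes after DSS in RORaf/f, and without untreated RORaΔIEC replicate 2 its interaction had 2 higher.

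Neutrophil and macrophage markers, like the members, were higher in RORaΔIEC than in RORaf/f after DSS. Neutrophil markers (8 of 12 tested) summed to 291 to 315 CPM in RORaΔIEC DSS, against 51.8 to 55.3 CPM in RORaf/f DSS, and all 8 were higher, with a median log2 fold change of 4.02. Ngp had no counts outside RORaΔIEC DSS. It passed the filter on low counts through that group alone, so its direction was fixed in advance. S100a8 and S100a9, abundant neutrophil proteins, were higher by 4.91 ± 0.12 and 4.65 ± 0.10. In untreated libraries they summed to 85.9 to 86.2 CPM in RORaΔIEC, against 97.3 to 99.8 CPM in RORaf/f, with none higher and 1 lower. Elane, a defining granule gene, was at 0 in every library, Mpo reached 0.114 CPM in a single library, and Ly6g made up nearly all of the sums in untreated libraries, with 85.7 and 85.8 CPM in RORaΔIEC, against 99.2 and 97.2 CPM in RORaf/f. It had 103 and 112 CPM in RORaΔIEC DSS, against 42.2 and 44.7 CPM in RORaf/f DSS. Macrophage and monocyte markers (11 of 12 tested) summed to 59.1 to 61.2 CPM in RORaΔIEC DSS, against 29.9 to 30.7 CPM in RORaf/f DSS, and 6 were higher. In untreated libraries they summed to 9.49 to 9.59 CPM in RORaΔIEC, against 9.86 to 10.4 CPM in RORaf/f, with 1 higher. Against untreated libraries, 8 neutrophil and 10 macrophage markers were higher after DSS in RORaΔIEC and none was lower. In RORaf/f, where the members' median was 0.12, 5 and 9 were higher and 1 neutrophil marker, Ly6g, was lower (-1.17 ± 0.06). Of all tested genes, 21.7% were higher and 19.8% lower after DSS in RORaΔIEC, and 18.9% and 18.3% in RORaf/f. Between genotypes the shares were 21.3% and 17.7% after DSS, and 9.19% and 6.22% without it. S100a8, Retnlg, Cxcr2 and Ngp had no counts in untreated libraries. They passed the filter through DSS libraries alone and could not be lower after DSS. The part of these cells in the members' levels after DSS was not tested.

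Of 12 general epithelial markers, 3 were higher and 4 lower in RORaΔIEC than in RORaf/f after DSS (median -0.02), and 6 were higher and 1 lower without it (median 0.11). Of all tested genes, 21.3% were higher and 17.7% lower after DSS, and 9.19% and 6.22% without it. Of 11 tested crypt stem cell markers, 1 was higher and 6 were lower in RORaΔIEC after DSS, and Lgr5, a receptor of crypt base stem cells, had 9.15 and 8.93 CPM in RORaΔIEC DSS, against 12.1 and 14.1 CPM in RORaf/f DSS (-0.54 ± 0.11, adjusted p = 0.00135). In untreated libraries 2 of these were higher and 2 lower. Of 12 mature colonocyte markers, 2 were higher and 7 lower in RORaΔIEC after DSS, and 7 were higher and 3 lower without it. Against untreated libraries, 1 was higher and 9 lower after DSS in RORaΔIEC, and 3 higher and 7 lower in RORaf/f. The shares of all tested genes were 21.7% and 19.8% in RORaΔIEC, and 18.9% and 18.3% in RORaf/f. T and NK cell markers (6 tested) had no call in either genotype comparison, B and plasma cell markers (7 tested) had 2 lower after DSS, and fibroblast and endothelial markers (6 tested) had 4 higher and 1 lower after DSS and 2 higher and 2 lower without it. Mitochondrial genes made up 5.29% and 4.91% of the counts in RORaΔIEC DSS, against 7.45% and 7.50% in RORaf/f DSS, and 7.23% and 7.28% in untreated RORaΔIEC, against 8.05% and 7.75% in untreated RORaf/f. How far these shares bear on the members was not tested.

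Within the members, members with and without the promoter letters had similar medians. The 32 members with a CHR had a median log2 fold change between genotypes of 0.50 in untreated libraries and a median interaction of 0.71, and the 8 without one had 0.44 and 0.76. For CCAAT the medians after DSS were 1.22 in the 30 members with it and 1.10 in the 10 without. These are descriptions over genes that share libraries, with no test. Bub1 and Pttg1, whose windows are printed above, had the highest and the lowest log2 fold change between genotypes after DSS. Of the 4 members whose windows hold none of the letters searched, Pttg1, Ncaph, Nuf2 and Nusap1, the last 3 were higher in RORaΔIEC after DSS by 1.35, 1.09 and 1.06 on the log2 scale.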

How the data were processed

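RNA from epithelial cells shaken off the mouse distal colon was sequenced in 8 libraries. Per the submitters' processing notes, STAR 2.5.3a, RSEM 1.3.0, DESeq2 1.18.1 and mm10 were used, with no role stated for each. Per the file headers, each deposited table holds RSEM expected counts, TPM and FPKM values per gene. The authors' expected counts are estimates that share out ambiguous reads, and 8 members have a fractional count in at least 1 library. The deposited TPM values were used as levels per length, and the authors' FPKM values were not used here.

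Expected counts were rounded to whole numbers and tested with edgeR 4.0.16 in R 4.3.3 (TMM factors, filterByExpr, quasi-likelihood test, two-sided). All 8 libraries entered 1 fit with a mean per group and 4 residual degrees of freedom. P-values were adjusted by Benjamini-Hochberg over 14991 tested genes, with a threshold of 0.05. SE is the log2 fold change divided by the root of F. The common biological coefficient of variation was 3.49%. The fit was tested on simulated counts. Alternatives were RLE factors, no filter, DESeq2 1.42.0, RSEM effective lengths as offsets, a replicate block, only the 2 groups compared, and each library left out.

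Replicate numbers recur in every group, but same-numbered libraries did not deviate together (correlations of deviations between -0.11 and 0.08), so no block entered the main result. Depth was 15971642 to 20418466 counts per library. Members, other gene lists (other mitosis genes, DNA replication, cell cycle transcription factors, G1 genes) and cell markers were chosen with earlier results of these data known. Values per library are given, in each role, for the member with the highest TPM, and in each comparison for the 3 members with the highest and the 3 with the lowest fold change. From the other lists, up to 4 genes per comparison with the smallest p could be named, plus Foxm1, Mybl2, Cdkn1a and Rora. Genes named beside a small count outside this rule were chosen after their values were seen. Promoter windows came from a RefSeq table of build GRCm38.p6, and gene overlaps from GENCODE M21.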

Additional observations from a re-analysis of the deposited data

Results flagged for a closer look

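The change after DSS differed between RORaΔIEC and RORaf/f for 43 of the 47 members (edgeR interaction test, adjusted over all tested genes), always with the higher value in RORaΔIEC. The values that follow are interactions, the log2 change after DSS in RORaΔIEC minus that in RORaf/f. Among the genes of entry into mitosis the interaction was 0.84 for Ccna2, 0.87 for Ccnb1, 1.06 for Ccnb2, 0.75 for Cdk1, 0.77 for Cdc25b and 0.93 for Cdc25c. For the kinases and the checkpoint it was 0.38 for Plk1, 0.54 for Aurka, 1.1 for Bub1, 0.73 for Bub1b, 0.81 for Mad2l1 and 0.91 for Ttk. For anaphase genes it was 0.89 for Cdc20, 0.91 for Ube2c and 0.54 for Espl1, and for the passenger complex 0.78 for Aurkb, 0.95 for Birc5, 0.57 for Incenp and 0.96 for Cdca8.

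At the centromere and kinetochore it was 0.73 for Cenpa, 0.55 for Cenpe and 0.7 for Nuf2. The kinesins had 0.6 for Kif11, 0.58 for Kif20a, 0.43 for Kif20b, 0.75 for Kif22, 0.49 for Kif23, 0.93 for Kif2c and 0.63 for Kif4. Spindle microtubule proteins had 0.64 for Tpx2, 0.64 for Nusap1, 0.63 for Ckap2 and 0.69 for Hmmr, and cytokinesis genes 0.6 for Prc1, 0.56 for Anln, 0.84 for Ect2 and 0.63 for Racgap1. Condensin and chromosome structure had 0.73 for Smc2, 0.45 for Smc4, 0.75 for Ncapd2, 0.65 for Ncapg, 0.86 for Ncaph and 0.79 for Top2a. Genes of the other lists also passed this test, with 0.83 for Nek2, 0.85 for Cdca3, 0.9 for Dlgap5 and 1.22 for Shcbp1. Among replication genes the interaction was 0.98 for Rrm1 and 1 for Mcm3. Foxm1 (0.79) and Mybl2 (0.46) passed it too, but these were to be named whatever their p. With 2 libraries per group, which of them stands apart cannot be told.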

How the results depend on the processing

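Of the values of single genes under other settings, 3123 kept their side of the threshold, 157 lost their call and 9 gained one. A single value reversed, where reversed means a change of direction in a value called in at least 1 of the settings compared. Changes of direction in values called in neither setting are counted among the 3123. That one was Cenpf, whose change after DSS in RORaf/f was 0.41 but -0.19 with effective lengths as offsets, and the cause was not tested. Without DSS, the 40 members higher in RORaΔIEC were 25 to 41 when 1 library was left out, 32 with DESeq2 and 27 with effective lengths, while all genes called were 2310 against 1246 with DESeq2, 1290 with effective lengths and 3403 with only the 2 groups compared. After DSS in RORaf/f, the 15 higher members were 9 to 15 with 1 library left out, 10 with DESeq2 and 9 with effective lengths, and the 3 lower were 0 to 3 with 1 library left out and 0 with DESeq2. All genes called in that comparison were 5573, and 3409 with DESeq2. The comparison of genotypes after DSS and the change after DSS in RORaΔIEC gave 45 or 46 members under every setting, with 3801 and 4314 of all genes called by DESeq2 against 5855 and 6231. The interaction gave 37 to 44 members, and 3208 of all genes, against 1684 with DESeq2 and 1794 with effective lengths.

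With a replicate block the higher members were 39, 46, 46, 15 and 43 in the comparisons in the order RORaΔIEC against RORaf/f untreated and after DSS, DSS against untreated in RORaΔIEC and RORaf/f, and the interaction, and the lower members in RORaf/f were 2. The replicate numbers share only a number. A crossed pairing in RORaf/f DSS, chosen after seeing the data, gave 14 higher and 1 lower there. The interaction has no version with only 2 groups. With 2 libraries per group the values rest on small numbers of samples, and leaving 1 out assumes that the lone library varies like the other groups.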
